A study of Mus musculus with 4 samples.

Results

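The genes of the retinoic acid pathway examined here are 10 in number: Stra6, Aldh1a1, Aldh1a2, Aldh1a3, Cyp26b1, Crabp1, Crabp2, Rara, Rarb and Rarg. They were taken by name from the array annotation, where 12 of the 39429 non-control probes carry the name of one of these genes. Rara and Rarb have 2 probes each and the other 8 genes have 1. All non-control probes together stand for 31896 gene and transcript names, counted after RefSeq accessions were used for naming. RNA of mouse kidneys at E15.5 was read on 4 one-colour arrays; the embryos were hybrids of the 129 and C57BL/6 strains that carry the Six2GFP reporter. Six2 marks the nephron progenitors of the cap mesenchyme. Six2GFP-positive cells, sorted by fluorescence, were measured on 2 arrays, and the Six2GFP-negative remainder of the same stage and tissue on 2 arrays. The negative cells are a mixture of everything else in the organ. Both groups share strain, age and reporter. The construct behind the reporter and the number of embryos pooled per array are not given in the sources used here. The sample descriptions mention tamoxifen, the protocols do not, and no such treatment is assumed. Cell type labels call both populations nephron progenitors, so the groups were taken from the sample titles. The comparison asks how the sorted progenitors differ from the remaining kidney cells.

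Retinoic acid is a small lipid signal made from vitamin A. Retinol enters cells from the blood, is oxidised to retinal and then, by the ALDH1A enzymes, to retinoic acid, which binds RAR receptors paired with RXR on DNA; CYP26 enzymes break it down. In the embryonic mouse kidney the stroma is known as a source of retinoic acid, and stromal receptors are needed for the ureteric bud to express Ret, the receptor that drives its branching.

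Receptor pairs bind direct repeats of a 6-base half-site, and 2 genes of this pathway are textbook targets whose start regions hold such a repeat. They are shown because both genes were lower in Six2GFP-positive cells. In the RefSeq windows of build GRCm38.p6, from 250 bases before to 50 after a start, the half-site was searched as AGGTCA or the variant AGTTCA or the variant GGGTCA or the variant GGTTCA, as direct repeats with 1, 2 or 5 bases between them, on both strands. Of the 10 genes, 8 had a window, 16 windows in all, and Rarb was the gene among them with a match. The match was the repeat spaced by 5, known as DR5, which was found in 0.0974% of all 32851 windows of this length, against 0.222% for the repeat spaced by 1 and 0.268% for that spaced by 2. Among 66 further retinoid genes, 47 had a window; Cyp26a1 held a DR5 and Bco1 a repeat spaced by 1. The 250 bases before the start of each gene are written 5′ to 3′ on the strand of the gene, Rarb at chr14:16575477-16575726 on the minus strand and Cyp26a1 at chr19:37697558-37697807 on the plus strand, with the 17 bases of the DR5 in capitals.
Rarb: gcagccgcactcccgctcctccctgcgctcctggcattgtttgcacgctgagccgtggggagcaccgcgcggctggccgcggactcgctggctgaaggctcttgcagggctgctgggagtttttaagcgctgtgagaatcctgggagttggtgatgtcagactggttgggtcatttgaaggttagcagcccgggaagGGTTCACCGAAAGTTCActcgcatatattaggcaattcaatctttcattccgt
Cyp26a1: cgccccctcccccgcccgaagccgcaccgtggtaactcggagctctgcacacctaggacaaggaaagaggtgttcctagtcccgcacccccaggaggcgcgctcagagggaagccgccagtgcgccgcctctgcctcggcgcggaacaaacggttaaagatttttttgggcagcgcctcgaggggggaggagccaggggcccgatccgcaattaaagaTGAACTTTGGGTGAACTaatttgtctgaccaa
The repeat lay 53 to 37 bases before the start of Rarb, reading with the gene, and 32 to 16 bases before the start of Cyp26a1, reading against it. A match is a description of the letters and not evidence of binding.

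Each probe is 60 bases long. The sequences measured for 2 members are shown because both encode stretches of the protein, the dimmer probe of Rarb (mm9 chr14:17264648-17264707, minus strand) and the probe of Crabp1 (mm9 chr9:54616192-54616251, plus strand).
Rarb: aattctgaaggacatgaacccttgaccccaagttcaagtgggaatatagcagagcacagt
Crabp1: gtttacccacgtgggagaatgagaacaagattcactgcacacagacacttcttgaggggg

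All values are log2 processed signals minus the 75th percentile of the array, so that 0 is the brightness of that percentile and 1 unit is a doubling. That percentile ranged from 1410 to 1604 in linear signal. Between 72.5% and 79.1% of spots passed the scanner's test for being well above background, and 0 were saturated. Six2 was 5.58 and 5.74 in Six2GFP-positive cells, against -0.17 and -0.15 in negative cells, so the reporter gene separated the arrays as labelled. Of 10 progenitor markers 8 were higher in positive cells and none lower. The number of arrays limits the precision, and since nothing states that the arrays of a group came from separate litters, p-values measure the spread between these samples only. In sorted but mixed cells, fewer cells of a type and less RNA per cell cannot be told apart.

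Most of the 10 pathway genes, which were chosen with earlier results of these data known, were lower in Six2GFP-positive cells. All 12 probes were well above background on all 4 arrays. Of these, 8 probes of 7 genes were lower, 1 was higher and 3 did not pass an adjusted p of 0.05 in limma (Benjamini-Hochberg over 30012 probes). Over all probes tested, 39.3% passed, 18.2% lower and 21.1% higher. The higher share depends on scaling: 13562 probes were higher and 4654 lower when arrays were centred on their medians, and 6343 and 5463 with the percentile. The median log2 difference was -1.88 over the 12 probes and 0.15 over all probes, where median centring gave 0.41. The groups did not overlap for 9 of the 12 probes, which is near the 75.1% of all probes for which this held. Differences of at least 2-fold were found for 8 of the 12 probes, against 17.5% of all probes.

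**Figure D1:**
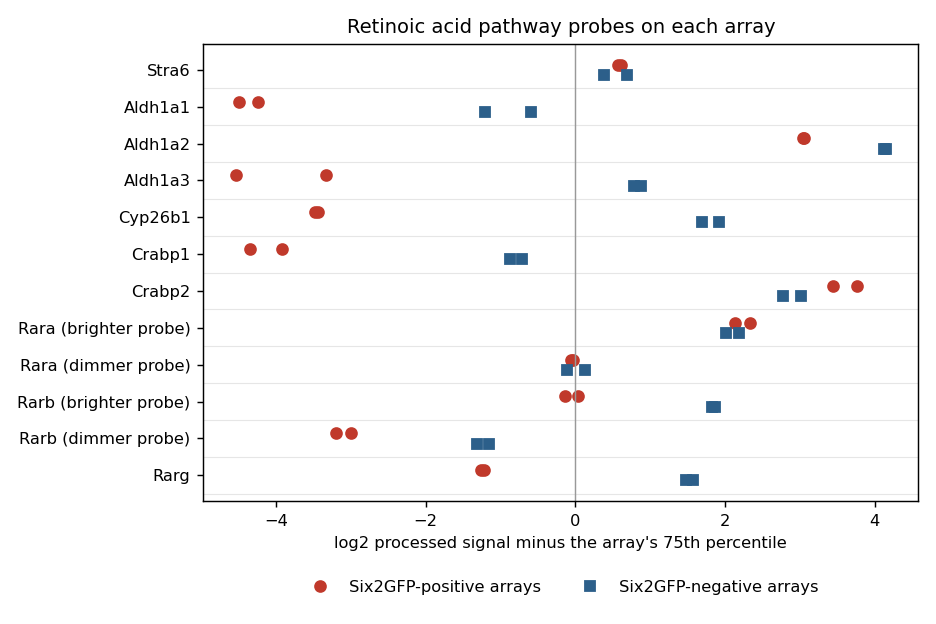
Log2 processed signal minus the array's 75th percentile (horizontal axis) for the 12 pathway probes on each of the 4 arrays; each point is 1 array, red circles Six2GFP-positive and blue squares Six2GFP-negative. Cyp26b1 and Aldh1a3 have the widest gaps between groups, Crabp2 lies to the right in positive cells, and the points of Stra6 and Rara overlap.

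**Figure D2:**
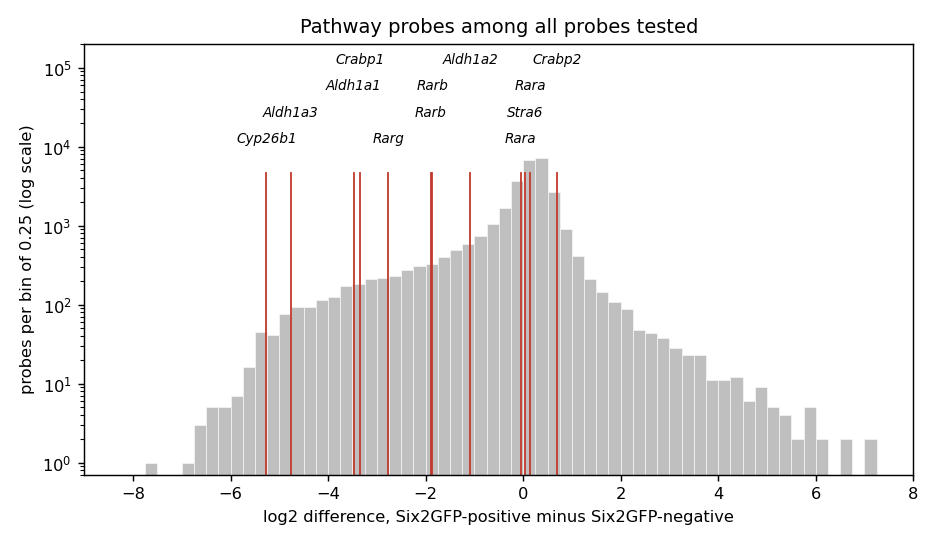
Number of probes (log scale) by log2 difference, Six2GFP-positive minus Six2GFP-negative, in bins of 0.25, over all 30012 probes tested; red lines mark the 12 pathway probes. The lines reach down to -5.26 for Cyp26b1, and those of Stra6 and Rara stand near 0.

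The uptake gene was not called, which with 2 arrays in each group does not show that the groups are alike. Stra6, the membrane receptor through which cells take retinol from its plasma carrier, was 0.57 and 0.61 in Six2GFP-positive cells, against 0.39 and 0.70 in negative cells. The negative arrays enclosed the positive ones, and the difference was 0.05 ± 0.14 (SE; 2 arrays in each group here and below; limma adjusted p = 0.806). The Stra6 probe lies at mm9 chromosome 9, 58001701 to 58001760.

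The 3 enzymes that make retinoic acid were all lower in Six2GFP-positive cells, by very different amounts. Aldh1a2, the main synthesising enzyme of the early mouse embryo, was 3.04 and 3.06 in positive cells, against 4.13 and 4.15 in negative cells. Both groups were far above the 75th percentile, and the difference was the smallest of the 3, -1.09 ± 0.08 or 2.12-fold (limma adjusted p = 0.00239; probe at mm9 chromosome 9, 71143931 to 71143990). Aldh1a3 was -3.33 and -4.54 in positive cells, against 0.79 and 0.88 in negative cells. The difference of -4.77 ± 0.44, or 27.3-fold (limma adjusted p = 0.00376; mm9 chromosome 7, 73535785 to 73535844), was well outside the gap between the positive arrays. Leaving out positive array 1 gave -5.37, or 41.4-fold, and leaving out positive array 2 gave -4.17, or 18.0-fold. Several marker lists also had a higher summed signal, relative to the percentile, on positive array 1 than on positive array 2: ureteric bud and collecting duct (5.26 and 3.55), stroma (10.69 and 8.54), proximal tubule (2.12 and 1.62) and leukocytes (6.87 and 4.77). So had podocytes (0.808 and 0.765), mesothelium and capsule (0.0859 and 0.0830) and the nephron progenitor list itself (183 and 179). The sum was lower on positive array 1 for early nephron (2.48 and 2.64), endothelium (0.254 and 0.271) and erythroid markers (0.227 and 0.319). Such sums are weighted to the brightest genes, and genes within a list differed. In the stromal list Col1a1 was 2.16 and 1.34 on positive arrays 1 and 2, and Foxd1 was 0.28 and 0.60. The part of any cell type in the Aldh1a3 values was not tested.

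Aldh1a1, the third enzyme, was -4.25 and -4.49 in Six2GFP-positive cells, against -1.21 and -0.60 in negative cells. The groups stood apart by -3.47 ± 0.25, or 11.1-fold (limma adjusted p = 0.00210; mm9 chromosome 19, 20717764 to 20717823), and the negative arrays differed from each other by 0.62. Its close paralogue in the mouse, Aldh1a7, was lower as well, at -4.90 and -5.46 in positive cells, against -0.85 and -0.86 in negative cells (-4.33 ± 0.21, limma adjusted p = 9.03e-04). Because the genes are nearly alike, signal shared between their probes is possible and both values are uncertain in that respect. Normexp background correction was run with an offset of 50, which lifts dim signals and shrinks their differences. With it the difference of Aldh1a1 was -2.66 and that of Aldh1a3 -4.05, still lower in positive cells.

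Breakdown showed the largest difference among the 10 genes. Cyp26b1, an enzyme that degrades retinoic acid and so limits where it acts, was -3.48 and -3.44 in Six2GFP-positive cells, against 1.69 and 1.92 in negative cells. The arrays of each group lay close together and the difference was -5.26 ± 0.12, or 38.5-fold (limma adjusted p = 4.77e-04; mm9 chromosome 6, 84521952 to 84522011). Its size exceeded that of 99.7% of all probes tested. Its relative Cyp26a1, whose start region is printed above, was not well above background on either positive array (-6.95 and -8.55), against -4.06 and -4.34 in negative cells, and was at least 6.82-fold lower on the scale without normexp (limma adjusted p = 0.0168). With normexp correction the fitted difference was -0.88, well short of that bound. The offset of 50 added there shrinks differences between signals this dim, so the size of the difference depends on how background is treated. Leaving out negative array 1 or 2 ended that call (adjusted p = 0.0777 or 0.0741 in limma).

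The 2 cytosolic binding proteins went opposite ways. Crabp1, which holds retinoic acid in the cytoplasm and is linked to its breakdown, was -3.92 and -4.35 in Six2GFP-positive cells, against -0.87 and -0.72 in negative cells. The difference was -3.34 ± 0.18, or 10.1-fold (limma adjusted p = 0.00112), and -2.65 with normexp correction. Crabp2, which carries retinoic acid to the nuclear receptors, was the member that was higher: 3.45 and 3.76 in positive cells, against 2.78 and 3.02 in negative cells. It was bright on all 4 arrays and the groups did not overlap, with a difference of 0.70 ± 0.16, or 1.63-fold (limma adjusted p = 0.0366; mm9 chromosome 3, 87757207 to 87757266). The direction was the same in all 14 alternative settings, but the call was not: it ended with quantile normalization (0.52, adjusted p = 0.0554), when dim probes were kept (adjusted p = 0.0701) and with each array left out (adjusted p from 0.0515 to 0.121 in limma).

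Among the receptors, Rarb and Rarg were lower and Rara was not called. Rarb, which retinoic acid itself induces in many tissues through the DR5 printed above, was 0.03 and -0.14 in Six2GFP-positive cells, against 1.83 and 1.86 in negative cells, with its brighter probe (mm9 chromosome 14, 17263367 to 17263426). Its dimmer probe, in coding sequence, was -2.995 and -3.205 in positive cells, against -1.15 and -1.32 in negative cells. The probes lie 1281 bases apart in both the genome and the transcript and gave nearly the same difference, -1.90 ± 0.10 and -1.87 ± 0.13, or 3.73-fold and 3.64-fold (limma adjusted p = 0.00108 and 0.00180).

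Rarg, the receptor known for its part in cartilage and skin, was -1.22 and -1.27 in Six2GFP-positive cells, against 1.48 and 1.57 in negative cells. The difference was -2.76 ± 0.09, or 6.79-fold (limma adjusted p = 5.18e-04; mm9 chromosome 15, 102065371 to 102065430). Rara, the most widely expressed of the 3 receptors, was 2.34 and 2.14 in positive cells, against 2.19 and 2.01 in negative cells, with its brighter probe (mm9 chromosome 11, 98836197 to 98836256). With its dimmer probe, 847 bases upstream, it was -0.03 and -0.06 in positive cells, against -0.12 and 0.13 in negative cells. The groups overlapped for both probes, and the differences were 0.14 ± 0.12 and -0.05 ± 0.12 (limma adjusted p = 0.416 and 0.75). Median centring, under which the median of all probes was 0.41, put the brighter probe at 0.39 (adjusted p = 0.0466 in limma).

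**Figure D3:**
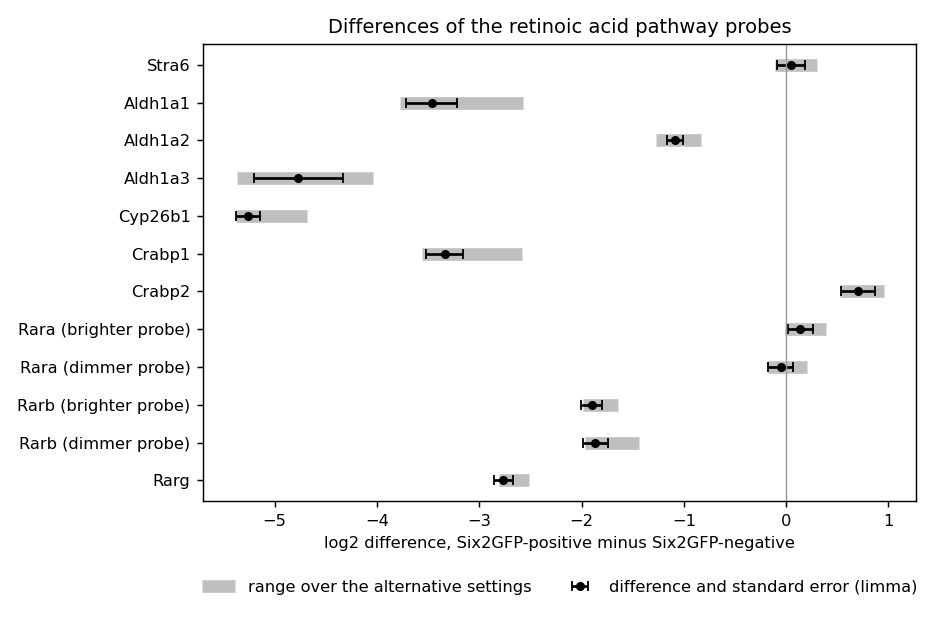
Log2 difference, Six2GFP-positive minus Six2GFP-negative, of the 12 pathway probes; points with bars are limma's estimate and standard error, and grey bands give the lowest and highest value over the alternative settings. The bands of Stra6 and both Rara probes cross 0, and that of Crabp2 lies between 0.52 and 0.95.

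Of the RXR partners of these receptors, only Rxrb was called by its brightest probe. Rxrb was 3.46 and 3.41 in Six2GFP-positive cells, against 2.95 and 3.001 in negative cells, higher by 0.46 ± 0.09 (limma adjusted p = 0.0227). That call ended when dim probes were kept (adjusted p = 0.0517) and with each array left out (adjusted p from 0.0745 to 0.114 in limma). Rxra had a difference of -0.17 ± 0.10 (adjusted p = 0.242) with its brighter probe and -0.77 ± 0.13 (adjusted p = 0.0169) with a dimmer one, both in limma; the first changed sign with median centring (0.083) and quantile normalization (0.10). The probes of Rxrg disagreed: the brighter one gave -0.06 ± 0.11 (adjusted p = 0.691), or 0.19 with median centring, while the other was -5.91 and -6.11 in positive cells, against -2.04 and -2.38 in negative cells, a difference of -3.80 ± 0.16 (limma adjusted p = 7.03e-04).

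Beyond the 10 genes, 66 genes of retinoid metabolism, receptor partnership and retinoic acid response were read by their brightest probe. Of these 58 were tested, 8 being too dim in both groups, and 36 passed, 14 higher and 22 lower in Six2GFP-positive cells. Over 24150 genes read the same way, 39.2% passed, 20.8% higher and 18.4% lower. With the array median 20 of the 58 were higher and 20 lower, and with normexp correction 16 and 17. The median difference of the 58 was -0.15, and -0.10 with genes below background in 1 group set to their bound. Among the called genes, 5 lower ones were not well above background on either positive array and 1 higher one on neither negative array; these were tested because of the group in which they were high, so their direction was fixed by the filter. The 52 genes measured in both groups comprised 13 higher, 17 lower and 22 not called. A share over all genes restricted in this way was not computed. Among all probes well above background on all 4 arrays, a stricter limit, 6766 were higher and 4418 lower.

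In retinoid metabolism, 5 of 26 tested genes were higher, 10 lower and 11 not called; 4 of the 10 lower genes (Adh4, Lrat, Ttr and Cyp26a1, chosen here after their values were seen) were below background in positive cells. Rdh10, the enzyme that oxidises retinol to retinal in the mouse embryo, was the most raised: 0.67 and 0.79 in Six2GFP-positive cells, against -1.04 and -1.03 in negative cells (1.76 ± 0.09, limma adjusted p = 0.00102). The dehydrogenase genes Rdh14 (1.07 ± 0.09) and Adh5 (0.81 ± 0.09) were higher as well (adjusted p = 0.00307 and 0.00607 in limma). Besides Aldh1a7 and Cyp26a1, Rbp7, a cellular retinol-binding protein gene, was among the lowest, at -6.63 and -6.61 in positive cells, against -3.55 and -3.09 in negative cells (-3.30 ± 0.18, limma adjusted p = 0.00114). It lies near background, and with normexp correction its difference was -1.38 and that of Aldh1a7 -2.98.

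Of 17 receptor partners and co-regulators read by their brightest probe, 6 were higher, 2 lower and 9 not called, with small differences. Rxra and Rxrg count there as not called, although their dimmer probes were lower, by -0.77 and -3.80. Tbl1xr1, a subunit of a nuclear receptor corepressor complex, was 0.14 and 0.09 in Six2GFP-positive cells, against -0.80 and -0.87 in negative cells, higher by 0.95 ± 0.09 (limma adjusted p = 0.00376). Nrip1, a corepressor that retinoic acid induces, was 0.07 and 0.04 in Six2GFP-positive cells, against 1.20 and 0.99 in negative cells (-1.04 ± 0.11, limma adjusted p = 0.00562). Kat2b, a histone acetyltransferase gene, gave -0.38 ± 0.09 (limma adjusted p = 0.0398), a call that 11 of 14 alternatives ended, the replicate block among them (adjusted p = 0.0556).

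Genes known to respond to retinoic acid in some tissue were mostly lower: 13 of 19 tested were lower, 3 higher and 3 not called, with a median of -1.17, or -1.04 with bounds. Over all genes read by their brightest probe, 18.4% were lower and 20.8% higher. Of the 16 measured in both groups, 11 were lower and 2 higher, and the share over all genes so restricted was not computed. Ecm1, a stromal extracellular matrix gene that depends on retinoic acid receptors in mouse kidney, was -0.74 and -0.64 in Six2GFP-positive cells, against 4.09 and 4.14 in negative cells (-4.81 ± 0.09, limma adjusted p = 4.77e-04). Tgm2, a transglutaminase gene, was -2.19 and -2.48 in positive cells, against 2.04 and 2.08 in negative cells (-4.39 ± 0.13, limma adjusted p = 4.84e-04), and -3.31 with its other probe. Ret was -5.79 and -6.08 in positive cells, against 0.64 and 0.83 in negative cells (-6.67 ± 0.15, limma adjusted p = 4.77e-04), or -4.88 with normexp correction. Meis2, a homeobox gene, went the other way, at 4.18 and 4.10 in positive cells, against 2.79 and 2.90 in negative cells (1.30 ± 0.10, limma adjusted p = 0.00223). Hoxb4 was higher by 0.50 ± 0.13 (limma adjusted p = 0.0487), a call that ended in 7 of 14 alternatives, and Hoxb1, not well above background in negative cells, was at least 1.62-fold higher on the scale without normexp; with normexp correction its fitted difference was 0.46, short of that bound.

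**Figure D4:**
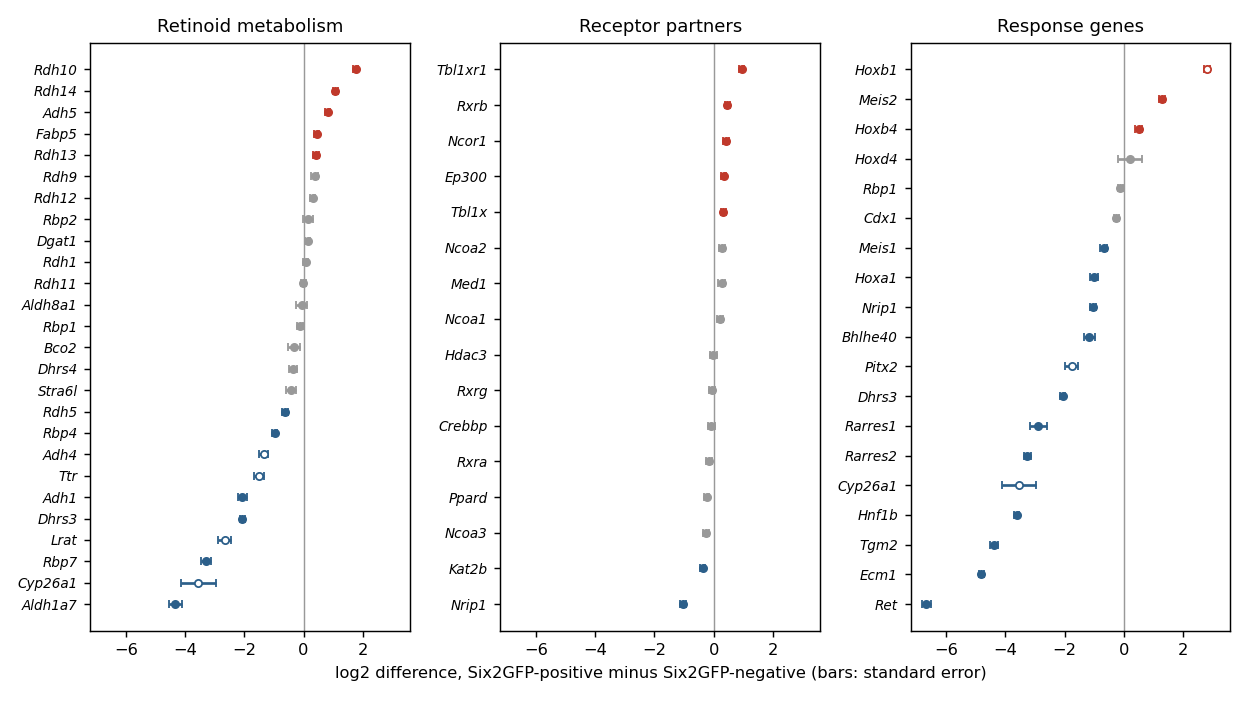
Log2 difference, Six2GFP-positive minus Six2GFP-negative, with standard error, of the tested genes of the 3 wider lists, except 1 receptor partner that is not shown; red is higher, blue lower and grey not past an adjusted p of 0.05, and open circles were not well above background on either array of 1 group, so that their position is not a measured fold. Each gene is drawn by its brightest probe. So read, receptor partners stay between -1.04 and 0.95, while response genes reach -6.67 for Ret. A dimmer Rxrg probe at -3.80 is not drawn.

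Markers of other kidney cell types were mostly lower in Six2GFP-positive cells too. Ret is counted both among the response genes above and among the ureteric bud and collecting duct markers here. Of 12 stromal markers 11 were lower in Six2GFP-positive cells, and their summed signal relative to the percentile was 10.69 and 8.54 on the positive arrays, against 112 and 104 on the negative arrays. All 11 ureteric bud and collecting duct markers were lower (5.26 and 3.55 in positive cells, against 46.4 and 55.3 in negative cells), as were all 8 early nephron markers (2.48 and 2.64, against 22.9 and 28.5), all 6 of mesothelium and capsule (0.0859 and 0.0830, against 0.707 and 0.732) and all 7 of endothelium (0.254 and 0.271, against 8.50 and 8.10). Of 6 markers each, 5 were lower for podocytes (0.808 and 0.765, against 6.35 and 5.58), proximal tubule (2.12 and 1.62, against 14.8 and 16.8) and erythroid cells (0.227 and 0.319, against 15.4 and 15.9), and of 7 leukocyte markers 3 (6.87 and 4.77, against 12.0 and 9.01). In positive cells 1 stromal, 2 mesothelial and 2 erythroid markers were not well above background. The part of each cell type in the values of the retinoic acid genes was not tested.

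The genes most alike to the 2 members at the ends of the range were sought by the Euclidean distance of log2 values over the 4 arrays after subtracting the mean of each probe. Tested probes that could not be matched to a RefSeq gene were left out, and each gene was counted once. For Cyp26b1 they were Fap at a distance of 0.0868, Ecm1, by its dimmer probe, at 0.0958 and Plekhs1 at 0.106; Plekhs1 was not well above background on either positive array, so its distance and place are not exact. Fap, a fibroblast surface protease gene, was -4.89 and -4.92 in Six2GFP-positive cells, against 0.28 and 0.41 in negative cells. For Crabp2 they were Zfp93 (0.0103), Sms (0.0288) and Kat6b (0.0338). With 4 arrays in 2 groups, such likeness mostly reflects the size of the group difference.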

How the data were processed

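RNA of sorted cells was hybridised to 1 array per sample. Per the file headers, the authors quantified the scans with Agilent Feature Extraction 10.7.3.1 (protocol GE1_107_Sep09, design 026655, coordinates mm9); the deposited intensity values are linear and detrended within the array, but not normalized between arrays. The deposited series table had column medians of 114, 110, 158 and 143 (positive arrays 1 and 2, negative arrays 1 and 2). Between 99.76% and 99.84% of its probes per array lay within 0.01 log2 of the scanner values. Its scale, centring and direction are therefore settled. The sources used here name no test by the authors.

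Outlier spots were left out and spots of a probe averaged, and 34 probes without a value on some array were dropped. Each array was scaled by log2 of its 75th percentile over probes. Testing required that a probe be well above background on 2 of 2 arrays in either group (30012 of 39429). Groups were compared per probe with limma 3.58.1 in R 4.3.3 (lmFit, eBayes, two-sided, Benjamini-Hochberg over all tested probes, threshold 0.05). Where no array of a group was well above background, the fold is a bound against the lowest signal well above background. Through RefSeq accessions 26055 probes were named, and the others by the symbol in the files. Named in the wider lists were the 3 genes with the largest called difference per list and direction whose groups did not overlap, and the 3 RXR genes; genes of several lists are told once, and 1 gene is not reported here by name. The fit was tested on simulated data with 200 changed probes, far fewer than were called in the real data. Of 50 probes at each size it recovered 0 at 0.5 log2, 9 at 1, 42 at 2 and 49 at 4. There were 3 false calls. The members and lists were chosen with earlier results of these data known. All arrays were on 1 slide with 1 scan time, so slide and scan give no batch term; the replicate number was fitted as a block in an alternative.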

Additional observations from a re-analysis of the deposited data

How the results depend on the processing

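The 8 lower probes of the pathway stayed lower and past the threshold in every alternative run that tested them (another scaling, normexp, the series table, other filters, a trended variance, 1 probe per gene, the replicate number as a block, each array left out). The count of higher members, 1, was 2 with the array median, 0 with quantile normalization and without a filter on dim probes, and 0 to 0 with each array left out. The brighter Rara probe was called with the array median (0.39). Values not called changed sign: Stra6 was -0.0052 with quantile normalization, -0.0056 with normexp and -0.051 with both, and from -0.11 to 0.20 with each array left out; the brighter Rara probe was -3.5e-04 with quantile normalization and -0.0083 with both; the dimmer one was 0.20 with the array median and from -0.18 to 0.072 with each array left out. Rxra was 0.083 with the array median, 0.10 with quantile normalization and 0.069 with both, and Rxrg 0.19 with the array median and from -0.16 to 0.040 with each array left out. The cause was not tested.

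Over all probes, the 11806 calls became 18216 with the array median (13562 higher); without a filter 3391 were higher. With 1 array left out, 5890 to 6542 probes passed, of which 1826 to 2682 were higher, and 22 to 26 wider retinoid genes, of which 6 to 7 were higher, in a fit with 1 array in a group and fewer degrees of freedom. Without a filter 6 wider genes were higher. With normexp Crabp1 was 6.29-fold lower, Aldh1a1 6.31-fold and Aldh1a3 16.6-fold. Deviations of positive and negative array 1 from their group means correlated at 0.221 across probes, and the design text speaks of sets without saying what a set shares. With the replicate block 11103 probes passed, with 9 pathway probes and 31 wider genes, of which 10 were higher. Values near background are limited by signal over background. Cyp26a1 and Hoxb1 have bounds only, which their normexp differences, fitted with an offset of 50 (-0.88 and 0.46), do not reach.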
